A study of Mus musculus with 4 samples.

Results

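Transcript levels of the mouse Schlafen genes Slfn1, Slfn2, Slfn3, Slfn4, Slfn5, Slfn8 and Slfn9 were followed across 4 mRNA sequencing libraries. The members were the 7 rows, of 37681 gene IDs in the count tables, whose Ensembl ID carries one of these symbols in GENCODE vM21, and all 7 were found. The cells came from bone marrow of C57BL/6 mice (wild type) and were grown in DMEM with fetal bovine serum and supernatant of L929 cells, which supplies the macrophage growth factor M-CSF. The groups were cells with shRNA against lncRNA-COX2 given 100 nM Pam3Cys4 for 5 h, unstimulated cells with that shRNA, cells without shRNA given Pam3Cys4, and unstimulated cells without shRNA. Pam3Cys4 is a lipopeptide sensed by TLR2 with TLR1. Each group was 1 library. Titles of both libraries lacking shRNA include the letters EV, left unexplained in the labels, so whether those cells received a control construct is not known. Animal age, sex and pooling are not given in the labels. How far the shRNA lowered its target was not analysed here.

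Schlafen genes take their name from the German word for sleep, because forced expression of Slfn1 halted the growth of mouse T cells. Their proteins share an N-terminal core and fall into short members (Slfn1, Slfn2), intermediate members (Slfn3, Slfn4) and long members (Slfn5, Slfn8, Slfn9), the long ones with an added C-terminal part that resembles RNA and DNA helicases. Several mouse Schlafen genes are known to be induced by type I interferon, and human relatives are known to cut transfer RNA or to restrict viruses.

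The libraries held 47385277 to 65826838 gene reads over 16916 to 17267 genes. Levels are given as CPM, read counts divided by TMM-scaled library sizes. With 1 library per group no difference was checked against replicate cultures, and each interval is a 95% interval that covers counting error only. In such bulk samples, fewer cells of a type and less RNA per cell cannot be told apart. Of 9 macrophage markers, 9 had at least 5 CPM in both shRNA libraries and 8 in both libraries without shRNA, and their summed level was 8232 and 6832 CPM with shRNA (Pam3Cys4 and unstimulated) and 8491 and 5984 CPM without. The missing marker was Mertk, at 1.09 CPM after Pam3Cys4 and 4.91 CPM unstimulated, against 8.02 and 38.8 CPM with shRNA. The sums hide differences in both directions between the shRNA states. After Pam3Cys4, Fcgr1 had 357 CPM with shRNA and 86.7 CPM without, and Itgam 479 and 969 CPM. Of the 7 T cell markers, which matter here because T cells express Schlafen genes, Cd3e, Cd3d, Cd3g, Cd8a and Trac had 0 counts in every library. Their summed level was 8.44 and 4.13 CPM with shRNA and 1.54 and 1.11 CPM without, mostly from the kinase gene Lck. B cell, NK cell, granulocyte, dendritic, mast, erythroid and fibroblast marker lists each summed to at most 2.32 CPM in any library. Of 4 endothelial markers, whose sum was 6.10 to 17.1 CPM, Kdr alone reached 5 CPM, with 13.6 and 9.01 CPM with shRNA against 3.78 and 3.76 CPM without. The part of Lck, Kdr, Mertk, Fcgr1 and Itgam in the results below was not tested. The libraries with and without shRNA also stood apart in Y-linked genes: Ddx3y had 1116 and 921 counts with shRNA against 4 and 3 without, and Kdm5d 665 and 730 against 1 and 0. Uty differed likewise, with 334 and 320 counts against 0 and 1, while Eif2s3y had 0 and 0 counts with shRNA against 6 and 3 without. Whatever made the Y-linked genes differ and the shRNA cannot be told apart in any shRNA comparison below.

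The 7 genes lie in 1 cluster on mouse chromosome 11, in the order Slfn5, Slfn9, Slfn8, Slfn2, Slfn1, Slfn4 and Slfn3, with the pseudogene Slfn10-ps between Slfn8 and Slfn2 and Slfn14 at the far end. Slfn5, Slfn2, Slfn1, Slfn4 and Slfn3 are read from the plus strand, Slfn9 and Slfn8 from the minus strand. Promoter windows of 250 bases before to 50 bases after the RefSeq gene start were available for 7 of 7 members (RefSeq, build GRCm38.p6, another build than the counts, which were made on NCBIM37). They are shown because exact matches to the motifs given below divide the family by protein size. The word that marks the short and intermediate members was picked after reading these windows, so its part of that division was set by the choice. Each long member holds the core of the interferon-stimulated response element (ISRE), searched on both strands as 2 GAAA units with any 2 bases between them. That core was absent from the windows of the other 4 members and present in 3.44% of 32851 promoter windows of the same length. Slfn8 has a second RefSeq window that overlaps the one shown and holds the same match. The 250 bases before the gene start of the long members follow, 5′ to 3′ on the gene's strand, with the ISRE core in capitals.
Slfn5 (chr11:82951852-82952101, plus strand): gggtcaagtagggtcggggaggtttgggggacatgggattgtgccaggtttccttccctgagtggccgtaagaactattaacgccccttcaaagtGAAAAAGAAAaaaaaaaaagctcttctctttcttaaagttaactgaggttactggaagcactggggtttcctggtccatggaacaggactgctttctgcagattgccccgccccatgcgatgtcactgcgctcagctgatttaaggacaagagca
Slfn8 (chr11:83020811-83021060, minus strand): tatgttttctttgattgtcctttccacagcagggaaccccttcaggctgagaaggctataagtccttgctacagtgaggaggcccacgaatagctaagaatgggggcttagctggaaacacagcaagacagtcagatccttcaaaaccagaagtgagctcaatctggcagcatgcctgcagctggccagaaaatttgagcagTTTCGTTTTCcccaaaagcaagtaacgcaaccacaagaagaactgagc
Slfn9 (chr11:82991831-82992080, minus strand): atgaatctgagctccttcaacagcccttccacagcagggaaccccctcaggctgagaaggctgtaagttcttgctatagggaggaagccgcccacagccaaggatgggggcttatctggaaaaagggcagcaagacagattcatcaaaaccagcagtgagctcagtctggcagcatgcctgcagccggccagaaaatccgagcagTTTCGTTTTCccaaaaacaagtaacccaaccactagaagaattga

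Slfn8 and Slfn9 hold the same ISRE letters, read on the opposite strand, 48 and 45 bases before the start. Their whole windows were 84.9% identical over 292 aligned bases, against 56.2 to 66.0% for the other 20 pairs of members. In Slfn5 the core began 155 bases before the start.

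Each short and intermediate member instead holds the word ACTTCCTGG, which contains TTCC, the core bound by ETS factors. It lay between 74 and 42 bases before the start in Slfn1, Slfn2, Slfn3 and Slfn4, was absent from the long members, and was present in 0.843% of all windows. This word was picked after reading these windows, so its presence is a description only. The shorter TTCC also occurs in the sequences of Slfn5, Slfn8 and Slfn9 printed above, so the ETS core itself does not divide the family. Excerpts around it follow, with the word in capitals.
Slfn1 (chr11:83116726-83116774, plus strand): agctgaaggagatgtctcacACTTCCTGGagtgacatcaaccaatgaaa
Slfn2 (chr11:83065037-83065085, plus strand): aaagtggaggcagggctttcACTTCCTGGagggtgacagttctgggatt
Slfn3 (chr11:83191268-83191316, plus strand): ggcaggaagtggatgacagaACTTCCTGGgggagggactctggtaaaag
Slfn4 (chr11:83175093-83175141, plus strand): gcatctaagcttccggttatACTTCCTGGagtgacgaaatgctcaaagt

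The STAT element TTCNNNGAA had no match in any member, against 8.30% of all windows, and the kappa B consensus matched in Slfn1 and Slfn9, against 8.46%. No kappa B match overlapped the other motifs. A match describes letters in this window and does not show binding.

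**Figure D1:**
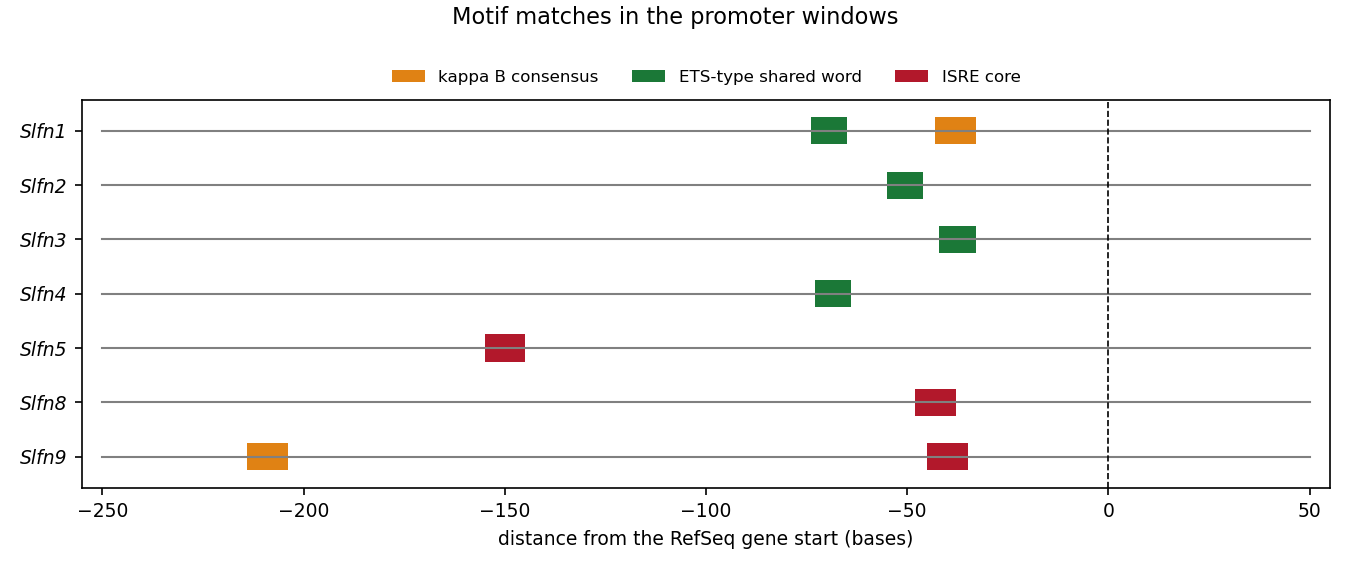
Motif matches in the promoter windows of the 7 members; the x axis is the distance from the RefSeq gene start in bases, each grey line is 1 window, and each coloured box is 1 match drawn to length. The ISRE core marks Slfn5, Slfn8 and Slfn9, and the ETS-type word marks Slfn1, Slfn2, Slfn3 and Slfn4.

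Levels differed widely within the family. Slfn2 is the short member whose loss in mice breaks the quiescence of T cells and monocytes. It had 258 CPM (14144 counts) with shRNA and Pam3Cys4, 73.4 CPM (4891) with shRNA unstimulated, 115 CPM (5824) without shRNA after Pam3Cys4 and 7.06 CPM (368) without shRNA unstimulated. The unstimulated library without shRNA thus stood far below the other 3. Per kilobase of annotated exon, Slfn2 was the most abundant member in all 4 libraries and made up 78.4% of the summed level of the 7 members with shRNA and Pam3Cys4, 71.7% with shRNA unstimulated, 89.4% without shRNA after Pam3Cys4 and 54.2% without shRNA unstimulated. Slfn1, the other short member, was read in traces only. It had 46 and 5 counts with shRNA (Pam3Cys4 and unstimulated) and 38 and 0 counts without shRNA. At most it reached 0.838 CPM, under the 5 CPM used as the limit for ratios. Its intervals overlapped between the 2 Pam3Cys4 libraries and between the 2 unstimulated libraries, and did not overlap between stimulated and unstimulated cells.

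Among the intermediate members, Slfn4, a gene of myeloid cells in mouse, had 52.9 CPM (2905 counts) and 8.80 CPM (586) with shRNA after Pam3Cys4 and unstimulated, against 15.0 CPM (760) and 2.07 CPM (108) without shRNA. As for Slfn2, the Pam3Cys4 library without shRNA lay above the unstimulated library with shRNA. Slfn3, which lies next to Slfn4 and has been linked to T cell quiescence in mouse, had 24.9 CPM (1369) and 19.1 CPM (1272) with shRNA, against 4.67 CPM (236) and 4.85 CPM (253) without shRNA. Its levels fell into a high shRNA pair and a low pair without shRNA, and the intervals of the low pair overlapped.

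The long members were all higher in both shRNA libraries than in either library without it. Slfn5, whose human relative represses transcription of herpesvirus genes, had 31.1 CPM (1708 counts) and 8.39 CPM (559) with shRNA after Pam3Cys4 and unstimulated, and 2.51 CPM (127) and 0.0959 CPM (5) without shRNA. It was close to undetected in unstimulated cells without shRNA and highest with shRNA and Pam3Cys4. Slfn8 had 40.6 CPM (2228) and 14.7 CPM (978) with shRNA, and 5.96 CPM (301) and 1.44 CPM (75) without. Slfn9, its close copy, had 40.6 CPM (2228, the same count as Slfn8 in that library) and 27.6 CPM (1839) with shRNA, and 4.85 CPM (245) and 7.56 CPM (394) without. Slfn9 was the 1 member whose unstimulated level lay above its Pam3Cys4 level beyond counting error, and this was so only without shRNA.

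**Figure D2:**
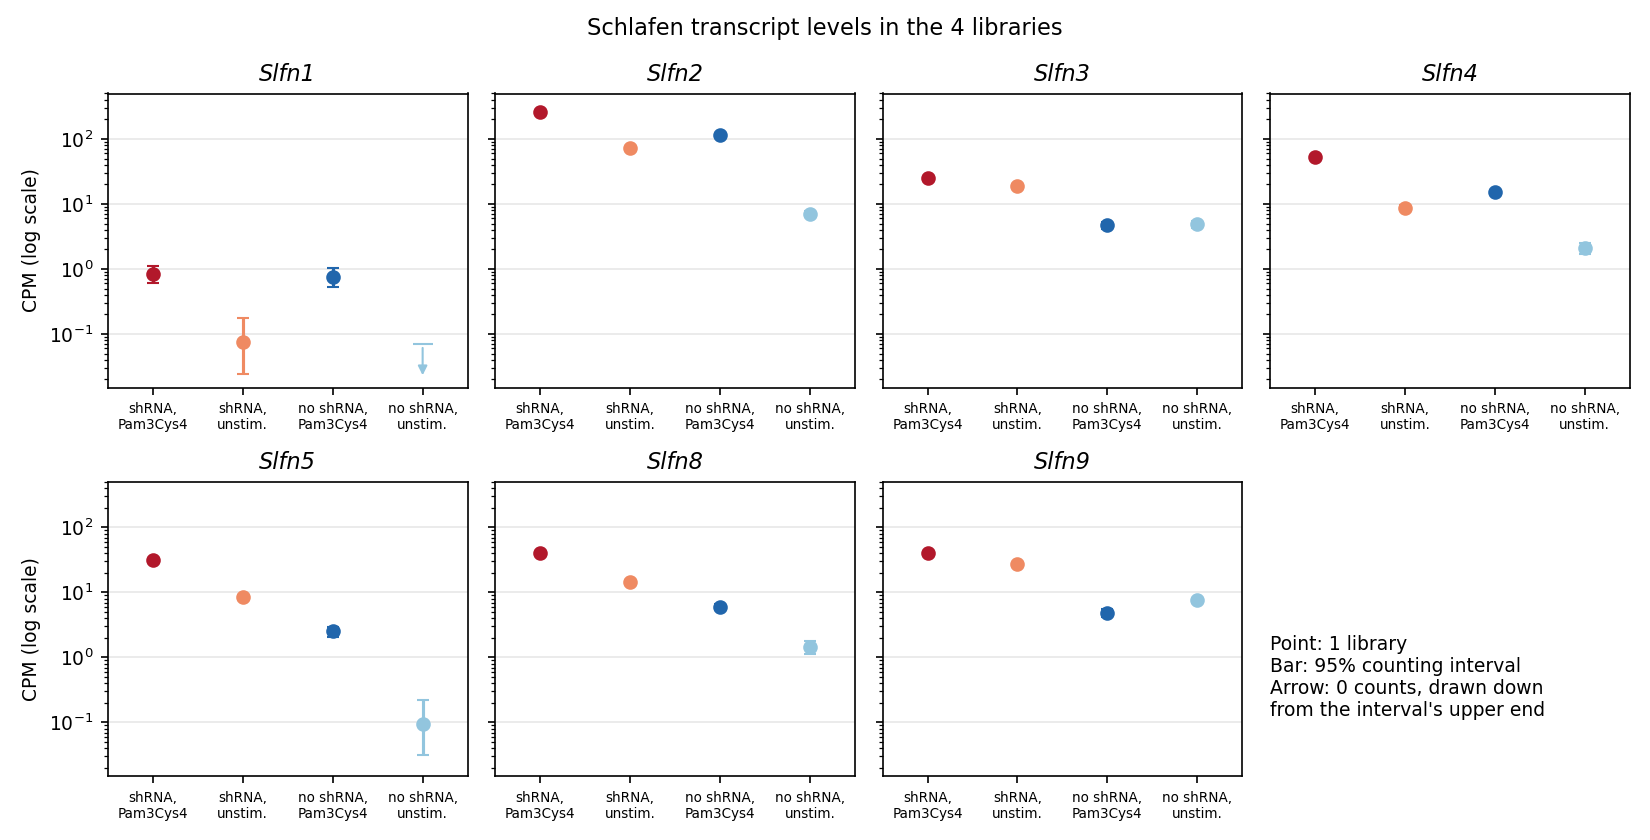
CPM of each member on a log scale in the 4 libraries, with 95% counting intervals; an arrow marks a count of 0. Slfn2 runs from 7.06 to 258 CPM, Slfn5 from 0.0959 to 31.1 CPM, and the 2 libraries with shRNA lie above both without it for Slfn3, Slfn5, Slfn8 and Slfn9.

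Pam3Cys4 with shRNA present went with higher levels of 4 members and left Slfn3 and Slfn9 within 2-fold. Genes whose higher library held 5 CPM or more were assessed, and a pair was taken as 2-fold apart if the ratio was 2 or above, or 0.5 or below, with 1 outside its interval. By that rule 4 of the 6 members that could be assessed were higher and 0 lower, with 6.3% of all 9601 genes higher and 3.53% lower. Over all genes this was 605 higher and 339 lower, and 494 and 466 when library totals were the only scaling. Slfn4 was 6.02-fold higher (5.50 to 6.59), Slfn5 3.71-fold (3.37 to 4.09), Slfn2 3.51-fold (3.40 to 3.63) and Slfn8 2.77-fold (2.56 to 2.98). Slfn9 was 1.47-fold (1.38 to 1.57) and Slfn3 1.31-fold higher (1.21 to 1.41). Slfn1, below the filter, was 11.2-fold higher (4.45 to 36.0). The median log2 ratio of the 6 members was 1.64, against 0.02 for all genes assessed.

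Pam3Cys4 without shRNA gave larger ratios than with it for Slfn2 and Slfn8 beyond counting error, while the intervals of Slfn4 overlapped. Here 3 of 4 assessed members were higher and 0 lower, with 7.07% of 9555 genes higher and 6.51% lower, and the median log2 ratio was 2.46 against 0.00. Over all genes 676 were higher and 622 lower, and 541 and 898 with library totals as the only scaling. Slfn2 was 16.3-fold higher (14.7 to 18.2), Slfn4 7.26-fold (5.93 to 8.97) and Slfn8 4.14-fold (3.21 to 5.41). Slfn5 missed the 5 CPM filter and was 26.2-fold higher (10.9 to 82.1), on 5 counts in unstimulated cells. Slfn1, also below the filter, had 38 counts against 0, a ratio of 13.1 when 3 counts per library are taken as the floor for 0, and the lower 95% counting limit was 10.1. Slfn3, with both libraries just under 5 CPM, had a ratio of 0.963 (0.803 to 1.15), and Slfn9 was 1.56-fold lower (1.33 to 1.84). Since the filter looks at the higher library, members seen only where they are high are more likely to pass it, and these counts describe the members that could be read.

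The shRNA went with higher levels of every member but Slfn1 after Pam3Cys4. All 6 assessed members passed the 2-fold rule upward and 0 downward, with 9% of 9702 genes higher and 5.58% lower, and their median log2 ratio was 2.59 against 0.05. Slfn3, Slfn5 and Slfn9 passed the 5 CPM filter only through the shRNA library, with 4.67, 2.51 and 4.85 CPM without shRNA. The count therefore describes only members that could be read. The long members had the largest ratios, with Slfn5 12.4-fold (10.3 to 14.9), Slfn9 8.37-fold (7.33 to 9.59) and Slfn8 6.81-fold higher (6.04 to 7.71). Slfn3 was 5.34-fold (4.65 to 6.16), Slfn4 3.52-fold (3.25 to 3.82) and Slfn2 2.24-fold higher (2.17 to 2.30). Slfn1 had a ratio of 1.11 (0.709 to 1.76), so no difference was detectable at this depth.

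Unstimulated cells with shRNA also had these 6 members 2-fold or more above cells without it and 0 below, with 7% of 9651 genes higher and 4.82% lower, and their median log2 ratio was 2.72 against 0.02. Slfn3, Slfn4, Slfn5 and Slfn8 passed the 5 CPM filter only through the shRNA library, with 4.85, 2.07, 0.0959 and 1.44 CPM without shRNA. Slfn5 was 87.5-fold higher (37.3 to 270), an interval that is wide because the library without shRNA held 5 of its counts. Slfn2 was 10.4-fold (9.35 to 11.6) and Slfn8 10.2-fold higher (8.06 to 13.1). Slfn4 was 4.25-fold (3.45 to 5.26), Slfn3 3.93-fold (3.43 to 4.52) and Slfn9 3.65-fold higher (3.27 to 4.08). Slfn1, with 5 counts against 0, gives no usable ratio.

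**Figure D3:**
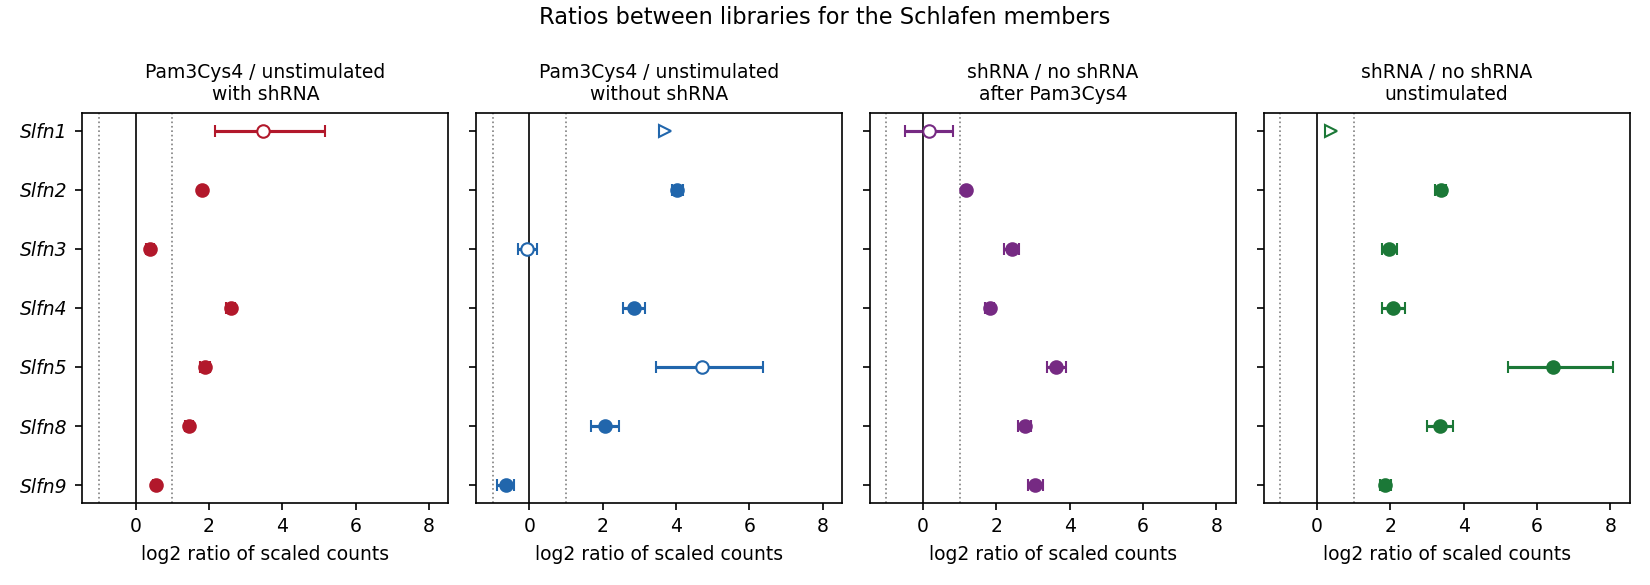
Log2 ratio of scaled counts for each member in the 4 pairs of libraries, with 95% counting intervals; filled points passed the 5 CPM filter, open points did not, open triangles are ratios against a floor of 3 counts, and dotted lines mark 2-fold. Slfn3 and Slfn9 lie between the dotted lines in both Pam3Cys4 panels and to the right of them in both shRNA panels.

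An additive model over all 4 libraries, edgeR's quasi-likelihood test with Benjamini-Hochberg adjustment over 9559 genes, took the states of 1 factor as repeats for the other. Its p-values therefore do not cover spread between separate cultures, and it had 1 residual degree of freedom. The model takes each effect as the same in both states of the other factor. Any difference between those states enters its error. For shRNA, 5 of 6 tested members rose and 0 fell, with 12.3% of all genes higher (1171) and 8.66% lower (828), against 1049 and 1265 genes with library totals as the only scaling. Slfn3 and Slfn5 entered the test only through the shRNA libraries. Slfn5 rose by 4.34 on the log2 scale (standard error 0.56, adjusted p = 0.00897) and Slfn8 by 3.03 (0.21, adjusted p = 0.00146). Slfn9 rose by 2.46 (adjusted p = 0.00975), Slfn3 by 2.20 (adjusted p = 0.00257) and Slfn4 by 1.94 (adjusted p = 0.00224), each in both stimulation states. Slfn2 had a log2 effect of 2.23 with a standard error of 0.56 and did not pass (adjusted p = 0.0535). Across the alternatives its adjusted p ran from 0.000109 to 0.0769, and it passed with library totals as the only scaling (adjusted p = 0.0269).

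For stimulation the same test found that 4 of 6 members rose and 0 fell, with 11.9% of all genes higher (1138) and 10.9% lower (1045), against 964 and 2045 genes with library totals as the only scaling. Slfn2 rose by 2.88 (standard error 0.57, adjusted p = 0.0302), Slfn4 by 2.71 (0.16, adjusted p = 0.00343), Slfn5 by 2.53 (0.53, adjusted p = 0.0337) and Slfn8 by 1.72 (0.20, adjusted p = 0.0109). Slfn3 had a log2 effect of 0.18 (adjusted p = 0.488) and Slfn9 one of 0.00 (adjusted p = 0.994). The value for Slfn9 lies between log2 ratios of 0.56 with shRNA and -0.64 without, so it does not describe either state. Slfn1 was too low to enter either test.

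The stimulation ratio of some members differed between the shRNA states beyond counting error. It was compared as the ratio with shRNA over the ratio without. Slfn1 and Slfn5 were left out, since a minimum of 10 counts was set for every library. Slfn2 had a stimulation ratio 4.65-fold smaller with shRNA (ratio of ratios 0.215, 0.193 to 0.240). Slfn9 had a ratio of ratios of 2.29 (1.93 to 2.72), Slfn3 one of 1.36 (1.12 to 1.65), Slfn8 one of 0.668 (0.513 to 0.869) and Slfn4 one of 0.829 (0.665 to 1.03). Of all 9857 genes assessed, 1.94% had a ratio of ratios at least 2-fold larger and 1.64% at least 2-fold smaller. The difference was not tested against replicates, of which there were none.

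Members shared part of their sequence with other genes at the read length of 50 bases. Of the 50-base windows in annotated transcripts, 14.6% of Slfn8 and 11.9% of Slfn9 also occurred in another gene, mostly each other and Slfn10-ps. The shares were 16.0% for Slfn3, 11.3% for Slfn4, 11.1% for Slfn5, 4.27% for Slfn2 and 0.606% for Slfn1. Reads of these stretches cannot be assigned to 1 gene with certainty. Alignments that were not unique were kept apart from the gene counts, at 27.0 to 29.9% of totals. The sums of 2 genes given below do not bring such reads back. Over 559 bases, 8.84% of its exon length, Slfn5 overlaps the antisense gene Slfn5os, which had 0 counts in all 4 libraries. The strand setting of the counting is not given in the sources used here. Whether reads of that stretch were counted for Slfn5 or set aside as ambiguous is therefore not known. Adding Slfn8 and Slfn9 counts gave a log2 Pam3Cys4 ratio of 0.94 with shRNA and 0.26 without, both under the 2-fold limit that Slfn8 alone passed (1.47 and 2.05). The summed log2 shRNA ratio was 2.91 after Pam3Cys4 and 2.23 in unstimulated cells, where Slfn8 alone had 3.35 and Slfn9 alone 1.87. Adding Slfn3 and Slfn4 gave a log2 Pam3Cys4 ratio of 1.48 with shRNA and 1.51 without, against 0.39 and -0.0551 for Slfn3 alone and 2.59 and 2.86 for Slfn4 alone. Their summed log2 shRNA ratio was 1.98 after Pam3Cys4 and 2.01 in unstimulated cells.

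Slfn10-ps, whose sequence resembles Slfn8 and Slfn9, had 15.2 and 8.06 CPM with shRNA (Pam3Cys4 and unstimulated) and 11.2 and 4.07 CPM without. With shRNA it was 1.36-fold higher after Pam3Cys4 (1.22 to 1.51) and 1.98-fold higher in unstimulated cells (1.69 to 2.33), below each of the 6 assessed members in both states. Slfn14, a long Schlafen gene at the end of the cluster, had 0 counts in every library, which allows up to 3 counts, and Slfnl1, a relative on another chromosome, had 0 to 5 counts. Of the 5 coding genes beyond Slfn5, Nle1, Rad51d and Rffl could be assessed. With shRNA after Pam3Cys4, Rffl, which encodes a ubiquitin ligase, had 51.1 CPM against 134.7 CPM without shRNA and was the 1 of these 3 that was 2-fold apart, in the lower direction. Nle1 and Rad51d had shRNA ratios from 0.955 to 1.33 over both states. Rffl was also higher after Pam3Cys4, 2.72-fold with shRNA and 6.39-fold without.

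**Figure D4:**
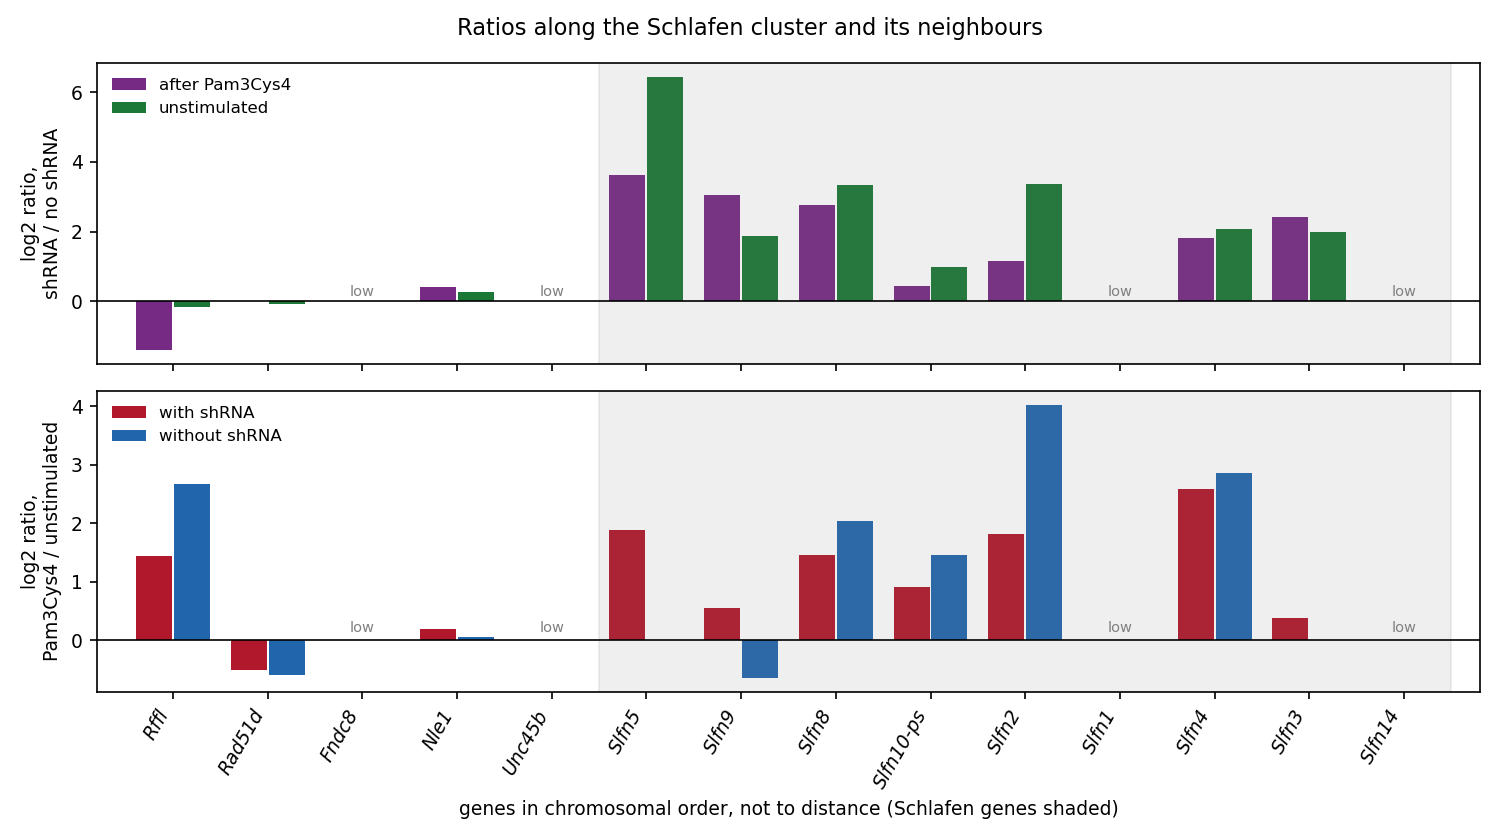
Log2 ratios for the Schlafen genes (shaded) and the 5 coding genes beyond Slfn5, in chromosomal order and not to distance; the upper panel gives shRNA over no shRNA and the lower Pam3Cys4 over unstimulated, with bars only for genes of at least 5 CPM in the higher library ("low": neither pair reached it, and without shRNA the Pam3Cys4 pair of Slfn3 and of Slfn5 did not). In the upper panel the 6 assessed members stand between 1.16 and 6.45 and Slfn10-ps between 0.44 and 0.99.

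Type I interferon signalling, a known inducer of several Schlafen genes, was followed in gene lists. Whether it bears on the Schlafen levels in these libraries was not tested. Of 13 genes of the signalling chain, 6 of 12 assessed passed the 2-fold rule upward with shRNA after Pam3Cys4 and 5 of 11 in unstimulated cells, and 0 downward, where 9% and 7% of all genes passed upward (median log2 1.39 and 0.95). Stat2, a subunit of the factor that binds the ISRE, had 440 and 140 CPM with shRNA (Pam3Cys4 and unstimulated) and 40.2 and 17.2 CPM without. Irf9, another subunit, had 65.1 and 49.6 CPM with shRNA and 17.1 and 8.88 CPM without. Irf7 and Usp18, an activator and an inhibitor of the pathway, were each 17.3-fold higher with shRNA after Pam3Cys4, and 27.6-fold and 29.3-fold higher in unstimulated cells. The receptor genes Ifnar1 and Ifnar2 had ratios of 1.24 and 1.16 after Pam3Cys4 and of 1.10 and 1.08 in unstimulated cells. Ifnb1, the interferon beta gene, had 47 and 10 counts with shRNA (Pam3Cys4 and unstimulated) and 28 and 2 counts without, below the filter. Of 27 interferon-stimulated genes, all 26 assessed after Pam3Cys4 and all 25 assessed in unstimulated cells passed the 2-fold rule upward with shRNA. Their medians were 4.05 and 5.32, and the members' medians of 2.59 and 2.72 lay below both. Many of these interferon-stimulated genes passed the 5 CPM filter only through the shRNA library. Isg15, Ifit1 and Rsad2 had 0.787, 1.25 and 2.32 CPM in unstimulated cells without shRNA, and Trim30a 2.06 CPM after Pam3Cys4 without shRNA. The counts and medians therefore describe only the genes that could be read. For Pam3Cys4 over unstimulated cells, 18 of 26 of these genes were higher where shRNA was present and 17 of 21 where it was not, and 0 lower. Their medians in that comparison were 1.56 and 1.95. Of all genes, 6.3% were higher and 3.53% lower with shRNA, and 7.07% and 6.51% without.

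Most genes of processes in which Schlafen proteins act were not 2-fold apart between the shRNA states, where 9% of all genes were higher and 5.58% lower after Pam3Cys4, and 7% higher and 4.82% lower in unstimulated cells. Of 11 genes of transfer RNA charging, processing and cleavage, 0 were higher and 3 lower with shRNA after Pam3Cys4, and 0 and 2 in unstimulated cells. Among them were Ang, an RNase that cuts transfer RNA (19.5-fold and 7.69-fold lower), and, after Pam3Cys4, Sars, a transfer RNA synthetase (2.41-fold lower). Of the G1 cyclins and their partners and inhibitors, 0 of 13 were higher and 1 lower with shRNA after Pam3Cys4, and 0 of 14 and 1 in unstimulated cells. That gene was Ccnd2, cyclin D2, with 1.99 and 2.30 CPM with shRNA against 196 and 312 CPM without. Of 15 proliferation genes, 1 was higher with shRNA after Pam3Cys4 and 0 in unstimulated cells, and 0 lower in either. Between Pam3Cys4 and unstimulated cells, 0 of these 15 were 2-fold apart with shRNA, and 4 were lower and 0 higher without (medians -0.32 and -0.62). The shares of all genes in that comparison were 6.3% higher and 3.53% lower with shRNA, and 7.07% and 6.51% without.

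Profiles were also compared by their shape over the 4 libraries. Distance was Euclidean between mean-centred log2(CPM + 0.5) values over the 4 libraries, and is a description over 4 points that share their libraries. Slfn3 and Slfn9, of different size groups and at different places in the cluster, were the closest pair of members (0.493), followed by Slfn5 and Slfn8 (0.97) and Slfn2 and Slfn4 (1.15). The neighbours Slfn8 and Slfn9 were 1.82 apart and the neighbours Slfn4 and Slfn3 2.42. Among 10013 other genes with at least 5 CPM, the closest to Slfn9 were Ube2l6, which encodes a conjugating enzyme for ISG15 (0.0731), Plcb4 and Nlgn2, and 142 genes lay within a distance of 1. For Slfn3 they were Maml2 (0.0943), Mitf, a transcription factor of myeloid and pigment cells, and Tapbp, a peptide-loading factor of MHC class I, with 276 genes within that distance. Slfn5 was closest to Lgals9, Mx2 and Ifi211 (0.442 to 0.515) and Slfn8 to Ifi203, Ms4a6c and Carmil1 (0.355 to 0.522), with 25 and 53 genes within 1. In unstimulated cells without shRNA Slfn5 had 0.0959 CPM, below the added 0.5 CPM. Its profile is therefore flatter here than its ratios, which affects all its distances. Slfn4 was closest to Arl5c, Cd274, which encodes PD-L1, and Slc28a2 (0.344 to 0.600). Slfn2 had the fewest genes within 1 of these 6 members, 3 in number: Tmem132a, Gch1, which makes the cofactor of nitric oxide synthase, and Arl5c (0.580 to 0.867).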

How the data were processed

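The submitters' processing notes name CASAVA 1.8, TopHat, HTSeq and the build NCBIM37. Which TopHat release, HTSeq release, gene annotation and counting strand were used remains not given in the sources used here. Per the labels' protocols, an Illumina mRNA kit and 50 bp reads were used. The deposited values are raw read counts per Ensembl gene ID. Of all totals, 32.5 to 34.4% named no gene and stayed out of library sizes.

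Here 32642 of 37681 IDs were matched to symbols of GENCODE vM21. TMM scaling factors came from edgeR 4.0.16 in R 4.3.3. Ratios of 2 libraries carry exact 95% conditional binomial intervals, and ratios of ratios carry delta-method intervals. For a lower bound, a count of 0 in a library was set to 3. The additive edgeR quasi-likelihood test (shRNA plus stimulation, adjusted p under 0.05) kept genes that reached 5 CPM in 2 or more of the libraries. Ratios of 2 libraries, their intervals and the additive test were checked on simulated data that held an shRNA effect only. Interval coverage was checked on counts with counting error alone, and ratios of ratios were not simulated. The simulation therefore cannot show how the test behaves where the stimulation ratio differs between the shRNA states. DESeq2 1.42.0, library totals, other filters, a 4-fold threshold and summed close copies were tried as alternatives. Exon lengths, shared windows and motifs come from GRCm38 references, another build than the counts. Members, gene lists and rules were chosen with earlier results of these data known. Named genes were the members, other Schlafen genes, 5 coding neighbours per side, the 3 closest profiles per member and up to 3 largest ratios per list, of which some are not reported here. Irf9, Ifnar1, Ifnar2, Ifnb1, marker genes and the Y-linked genes were named after their values were seen.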

Additional observations from a re-analysis of the deposited data

Results flagged for a closer look

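Slfn9 and Slfn3 had Pam3Cys4 ratios on opposite sides of 1 in the shRNA states, and the difference was not tested against replicates, since each state has 1 library per condition. The log2 Pam3Cys4 ratio of Slfn9 was 0.56 with shRNA (40.6 CPM stimulated, 27.6 CPM unstimulated) and -0.64 without (4.85 CPM stimulated, 7.56 CPM unstimulated), and neither counting interval included 0. For Slfn3 it was 0.39 with shRNA (24.9 and 19.1 CPM) and -0.0551 without (4.67 and 4.85 CPM), and the interval without shRNA included 0. Over counting error alone, the ratio with shRNA over the ratio without was 2.29 (1.93 to 2.72) for Slfn9 and 1.36 (1.12 to 1.65) for Slfn3.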

How the results depend on the processing

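With DESeq2 size factors or library totals as the only scaling, each of the counts of members 2-fold apart stayed as reported. Library totals alone put the all-gene median of the log2 Pam3Cys4 ratio at -0.12 with shRNA (0.02 with TMM) and -0.18 without (0.00 with TMM), and no called member ratio changed direction. Without the 10-count minimum Slfn5 had a log2 ratio of ratios of -2.82. Without the filter, members higher after Pam3Cys4 without shRNA numbered 5, since Slfn1 and Slfn5 entered, and with a 4-fold threshold members higher after Pam3Cys4 with shRNA numbered 1, Slfn4. All-gene counts moved by construction with more genes or a stricter threshold. Giving higher and then lower for Pam3Cys4 with shRNA, Pam3Cys4 without, shRNA after Pam3Cys4 and shRNA unstimulated, they were 1289 and 892, 1332 and 1242, 1610 and 1449, and 1318 and 1482 without the filter, and 197 and 31, 227 and 60, 348 and 223, and 287 and 218 at 4-fold. At 1 CPM, lower genes numbered 526 (Pam3Cys4 with shRNA), 893 (shRNA after Pam3Cys4) and 791 (shRNA unstimulated). In the additive test, library totals gave 1265 genes lower with shRNA and 2045 lower with stimulation, and no filter gave 2170 higher and 1874 lower with shRNA and 2013 higher and 1857 lower with stimulation. DESeq2 called the same number of members as edgeR for both effects. No paired analysis was possible because the labels give no replicate numbers and each group has 1 library. Leaving out any library leaves the additive model no residual degree of freedom, so that was not run. Depth limits Slfn1 throughout and Slfn5 in unstimulated cells without shRNA, where a ratio rests on 0 to 5 counts.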
